A study of Gallus gallus with 24 samples.

Results

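The transcripts of 8 genes of lipoprotein lipolysis, remodelling and uptake were followed in chicken liver across hatching. They are lipoprotein lipase (LPL), hepatic lipase (LIPC), endothelial lipase (LIPG), lecithin-cholesterol acyltransferase (LCAT), cholesteryl ester transfer protein (CETP), phospholipid transfer protein (PLTP), LDL receptor related protein 1 (LRP1) and the very low density lipoprotein receptor (VLDLR). They were chosen by gene symbol, with earlier results of these data known. The study had already reported LPL, LIPC, LCAT, CETP and LRP1 as higher in embryos in at least 1 contrast with hatchlings. The members made up 8 of 13009 genes that the array annotation named by a single symbol. Their 11 probe sets were among 38439 that were tested.

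Livers of 24 Ross x Ross broiler chickens labelled male, 4 at each of 6 ages, were each profiled on an Affymetrix Chicken Genome Array. The embryos, still in ovo, were taken on embryonic days E16, E18 and E20 by their titles and source names, although the developmental stage field gives E16 for all of them. The hatchling chicks were unfed at 1 day (D1) and had starter feed and water freely available at 3 and 9 days (D3 and D9). All groups share the breed, the labelled sex and the tissue, and the labels name no transgene or drug. Age and first feeding cannot be told apart between D3 and D1, nor age and hatching between D1 and E20. The labels and the study's methods differ in how long D1 chicks stayed in the incubator after hatching, so their exact age is not settled. Chicks were also vaccinated against Marek's disease after the D1 livers had been taken. Arrays were hybridized on 4 days, 1 liver of every age a day. A liver's replicate number is taken here as that day, which the sample titles do not state.

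In the egg, yolk lipid reaches the embryo as large triglyceride-rich lipoproteins that the yolk sac secretes, and the liver takes up and stores much of their cholesterol as esters. Lipases on the vessel wall break down the triglyceride and phospholipid of circulating particles. LCAT and the transfer proteins esterify and exchange lipid between particles, and receptors of the LDL receptor family take up what remains. After hatching the chick uses up its residual yolk and turns to a feed rich in carbohydrate, from which its liver makes fat.

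Levels are log2 intensities after robust multi-array averaging (RMA), so a difference of 1 is a doubling. Ratios are log2 differences, the later age minus the earlier one, and the contrast of hatchlings with embryos is the mean of the D1, D3 and D9 means minus the mean of the E16, E18 and E20 means. A gene is called at a Benjamini-Hochberg adjusted p of 0.05 or less from limma over all 38439 probe sets, together with an absolute log2 ratio of 0.75 or more. Signals under 4.43, the 25th percentile of all probe sets' mean levels, are treated as near background. Levels of different probe sets cannot be set against each other, so each gene is described against itself. Error values after ± are SD over 4 livers.

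Albumin (ALB), the main plasma protein of hepatocytes, lay between 14.89 and 15.24 on the 24 arrays. Its highest level was also the highest of any tested probe set, so at this end of the scale ALB may not show a change in hepatocyte share. Of 11 measured hepatocyte markers, 1 was higher and 0 were lower in hatchlings than in embryos (median ratio -0.04). RBP4 was near background (mean 4.40), and HPX averaged 7.87 at E16 and 13.78 at D9. All other markers of this list averaged 13.73 (AMBP) or more, toward the top of the scale. The list too may therefore not show a change in hepatocyte share. A pair of arrays stood apart from their labels or their age. E18 replicate 2 had 12.17 for the W-linked gene HINTW, against at most 6.05 on the other arrays, although all birds were labelled male. The sex of that liver is therefore in doubt. D9 replicate 1 had 8.11 for the atrial hormone gene NPPA, against at most 5.23 elsewhere. Each call that changed when these arrays were left out is given with its value. In whole liver, fewer cells of a type and less RNA per cell cannot be told apart.

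Between hatchlings and embryos, 5 of the 8 genes were lower (LPL, LIPC, LCAT, CETP and LRP1), 1 was higher (LIPG) and 2 were not called (PLTP and VLDLR). Over all 13009 named genes, 4.11% were called lower and 5.42% higher in this contrast. The median log2 ratio of the 8 genes was -0.99, against 0.00 over all genes. A moderated F test over the 6 ages passed an adjusted p of 0.05 for 7 of the 8 genes, all but VLDLR, and for 48.3% of all named genes.

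**Figure D1:**
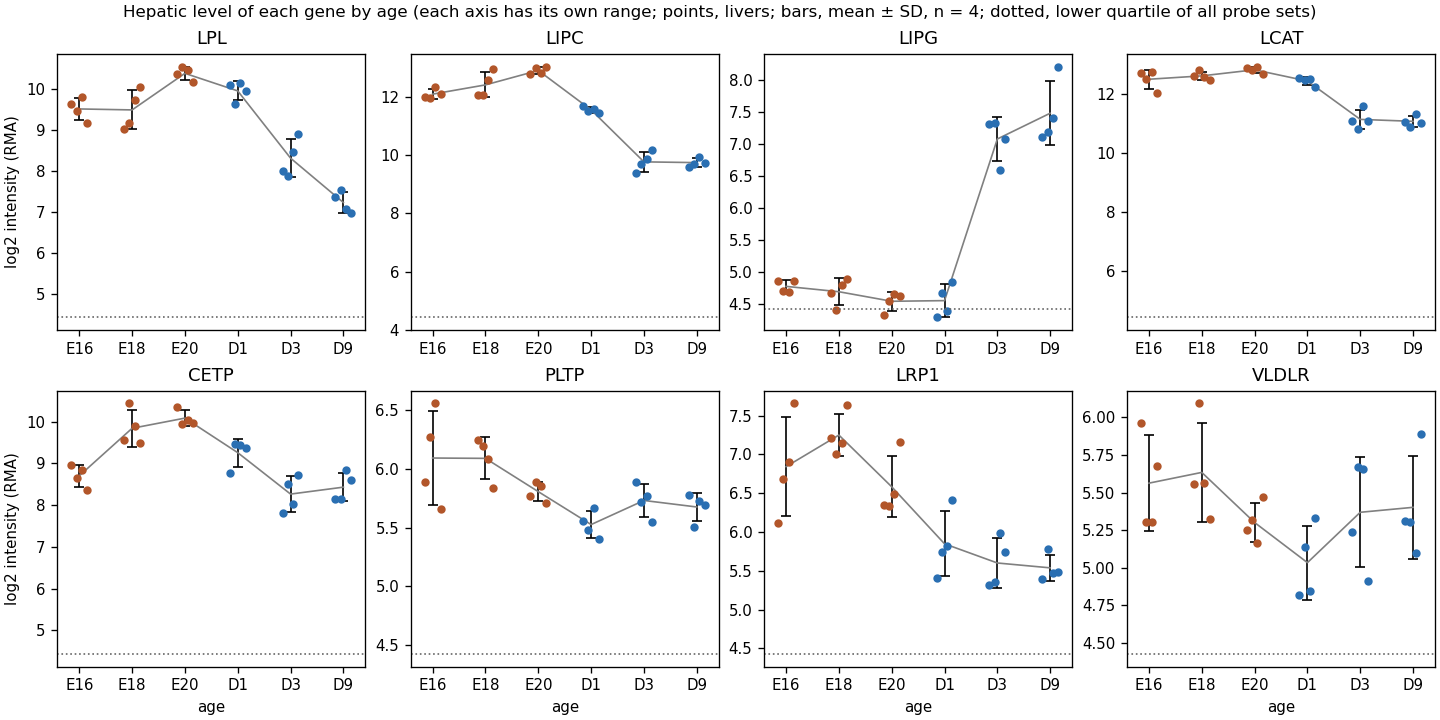
Log2 intensity of each of the 8 genes by age, with a range of its own for each panel. Points are livers (embryos brown, hatchlings blue), bars are mean ± SD over 4 livers, and the dotted line marks the lower quartile of mean level over all probe sets (4.43). LPL, LIPC and LCAT lay lowest at D3 and D9, while LIPG lay near the dotted line up to D1 and between 6.59 and 8.21 at D3 and D9.

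LPL hydrolyses the triglyceride of circulating lipoproteins, and in rats and mice the liver makes it around birth but hardly in the adult. Its levels were 9.63, 9.47, 9.80 and 9.18 at E16, 9.03, 9.17, 9.74 and 10.04 at E18, and 10.37, 10.56, 10.47 and 10.17 at E20. They were 10.10, 9.64, 10.16 and 9.95 at D1, 7.996, 7.89, 8.48 and 8.91 at D3, and 7.36, 7.53, 7.07 and 6.97 at D9. The E20 livers were thus highest, followed by the D1 livers with no overlap. The D1, E16 and E18 livers overlapped, and below them the D3 livers and then the D9 livers were each separate from the group above.

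LPL averaged 8.50 in hatchlings and 9.80 in embryos (log2 ratio -1.30, SE 0.13, adjusted p = 2.7e-08), lower in hatchlings on 4 of 4 days. The D1 livers lay within the range of the embryos, and all D3 and D9 livers lay below it. Of the contrasts run, that of D9 with D1 gave the largest LPL difference, with 7.23 ± 0.26 at D9 against 9.96 ± 0.23 at D1. This was 6.62-fold lower at D9 (log2 ratio -2.73, 95% interval -3.18 to -2.28, adjusted p = 6.9e-09).

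Stepwise, LPL was 1.86-fold higher at E20 than at E18 (log2 ratio 0.89, adjusted p = 0.0123). It was not called between D1 and E20 (-0.43, interval -0.88 to 0.02, adjusted p = 0.279). It was 3.12-fold lower at D3 than at D1 (-1.64, adjusted p = 2.4e-05) and a further 2.12-fold lower at D9 than at D3 (-1.08, adjusted p = 0.0039). The E20 call was the least secure of these. It was lost without E18 replicate 1 (ratio 0.74, adjusted p = 0.0605) and without both E18 replicate 2 and D9 replicate 1 (0.79, adjusted p = 0.0558).

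D9 replicate 1, the array with high NPPA, had an LPL level of 7.36, within the 6.97 to 7.53 of the other D9 livers, and LPL is abundant in heart. The 9 measured heart muscle markers had a mean deviation of 2.00 on that array, and 4 of them (MYL3, TNNT2, MYBPC3 and CSRP3) averaged near background over all arrays. Macrophages and adipocytes also make LPL. Of 11 macrophage markers, 0 were lower and 2 higher at D9 than at D1, with a list mean of 8.99 to 9.59 at D9 and 8.49 to 8.99 at D1. Of 7 adipocyte markers, 0 were lower and 1 was higher, with a list mean of 7.31 to 7.66 at D9 and 7.08 to 7.23 at D1. The part of these cells in the LPL levels was not tested.

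LIPC removes phospholipid and triglyceride from remnants and high density lipoprotein (HDL), and in mammals it is made mainly by hepatocytes. Its levels were 12.01, 11.95, 12.33 and 12.10 at E16, 12.06, 12.08, 12.57 and 12.95 at E18, and 12.78, 12.997, 12.82 and 13.05 at E20. They were 11.68, 11.53, 11.58 and 11.44 at D1, 9.37, 9.68, 9.85 and 10.17 at D3, and 9.59, 9.70, 9.95 and 9.75 at D9. No hatchling liver reached the lowest embryo liver, and the D3 and D9 livers lay in 1 overlapping range below all D1 livers.

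LIPC averaged 10.36 in hatchlings and 12.47 in embryos, a 4.34-fold lower level in hatchlings (log2 ratio -2.12, SE 0.10, adjusted p = 9.7e-14). It was already 2.56-fold lower at D1, before feeding, than at E20 (-1.35, interval -1.70 to -1.01, adjusted p = 6.9e-06). A further difference separated D3 from D1 (-1.78, adjusted p = 1.5e-07). D9 and D3 differed by -0.03 (interval -0.37 to 0.32). The higher level at E20 than at E18 (0.49) did not pass (adjusted p = 0.0779).

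LIPG acts mainly on the phospholipid of HDL and in mammals is secreted largely by endothelial cells. Its levels lay close to the limit of 4.43 up to D1. They were 4.86, 4.71, 4.69 and 4.86 at E16, 4.68, 4.41, 4.81 and 4.90 at E18, 4.34, 4.56, 4.67 and 4.64 at E20, and 4.30, 4.68, 4.41 and 4.85 at D1. At D3 they were 7.32, 7.33, 6.59 and 7.08, and at D9 7.12, 7.19, 7.41 and 8.21. Every fed chick was above every unfed chick and every embryo, with no intermediate value.

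LIPG averaged 7.08 ± 0.35 at D3 and 4.56 ± 0.25 at D1, a 5.75-fold higher level at D3 (log2 ratio 2.52, interval 2.12 to 2.92, adjusted p = 4.9e-09). The difference between D9 and D1 was 2.92, or 7.59-fold (adjusted p = 2.4e-10), while D9 and D3 differed by 0.40 (adjusted p = 0.354). The 3 steps between E16 and D1 gave ratios of -0.08, -0.15 and 0.01, none of them called. Where background makes up much of a signal, an array ratio understates the change in transcript, so the D3 and D9 ratios of LIPG may be too small.

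Of 11 measured endothelial markers, 0 were higher and 1 was lower at D3 than at D1, with a median ratio of -0.34. The mean level of the list was 7.47 to 7.85 at D3 and 7.94 to 8.12 at D1. At D9 it was 7.82 to 8.18. EMCN was near background throughout. The part of endothelial cells in the LIPG levels was not tested.

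**Figure D2:**
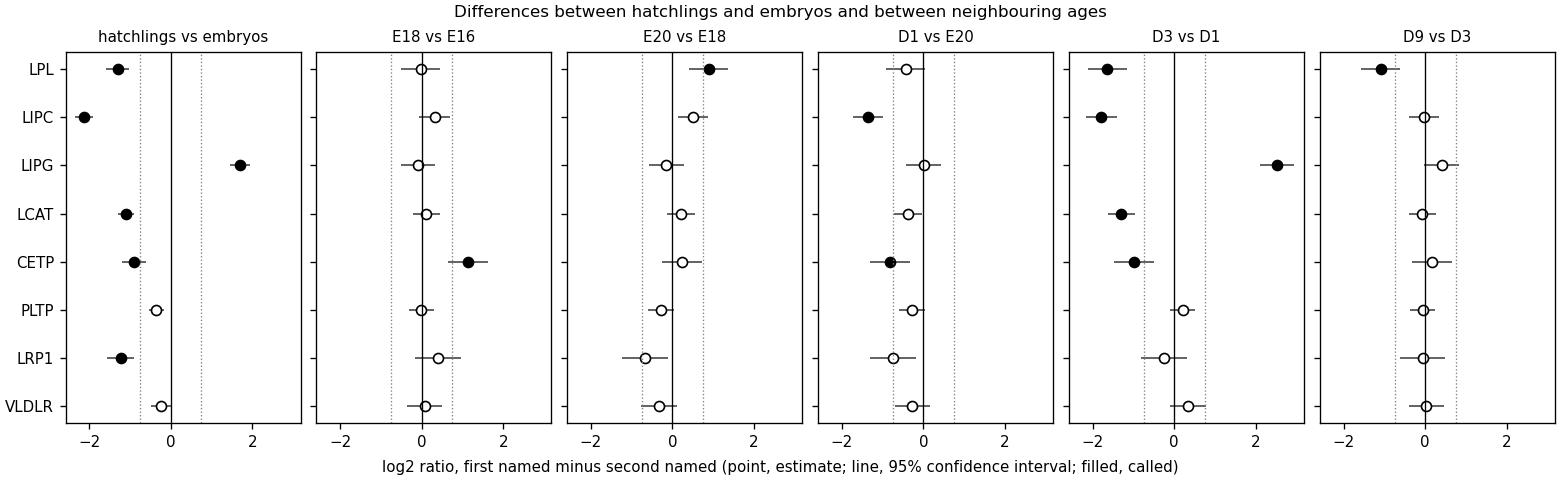
Log2 ratios of the 8 genes in the contrast of hatchlings with embryos and in the 5 steps between neighbouring ages, the first named group minus the second. Points are estimates, lines are 95% confidence intervals, filled points are called, and dotted lines mark ratios of -0.75 and 0.75. The step from D1 to D3 holds 5 called genes, with LIPG to the right at 2.52 and LPL, LIPC, LCAT and CETP to the left.

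LCAT esterifies cholesterol on HDL and is secreted by hepatocytes. Its levels were 12.69, 12.49, 12.74 and 12.02 at E16, 12.59, 12.78, 12.57 and 12.46 at E18, 12.87, 12.79, 12.90 and 12.66 at E20, and 12.53, 12.45, 12.49 and 12.23 at D1. At D3 they were 11.07, 10.79, 11.57 and 11.08, and at D9 11.05, 10.86, 11.32 and 11.01. The first 4 ages formed a high plateau, and all fed chicks lay below all other birds.

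LCAT was 2.46-fold lower at D3 than at D1 (log2 ratio -1.30, interval -1.61 to -0.99, adjusted p = 3.6e-06). D9 and D3 differed by -0.07 (interval -0.38 to 0.24). Between D1 and E20 the livers did not overlap, with 12.42 ± 0.14 at D1 and 12.80 ± 0.11 at E20, but the ratio of -0.38 did not pass (adjusted p = 0.131). Hatchlings averaged 11.54 and embryos 12.63 (-1.09, adjusted p = 1.2e-09).

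CETP moves cholesteryl ester and triglyceride between lipoproteins, and chickens, unlike mice and rats, have plasma CETP activity. Its levels on the brightest of its 3 probe sets were 8.96, 8.65, 8.84 and 8.37 at E16, 9.55, 10.45, 9.89 and 9.49 at E18, and 10.36, 9.96, 10.05 and 9.98 at E20. They were 8.76, 9.46, 9.45 and 9.37 at D1, 7.80, 8.52, 8.02 and 8.73 at D3, and 8.15, 8.14, 8.84 and 8.60 at D9. CETP thus peaked at E18 and E20, and the E16 livers overlapped with those of D3 and D9.

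CETP was the only one of the 8 genes called between E18 and E16, 2.20-fold higher at E18 (log2 ratio 1.14, interval 0.67 to 1.61, adjusted p = 0.0075), where 0.215% of all named genes were called higher and 1.37% lower. It was 1.78-fold lower at D1 than at E20 (-0.83, adjusted p = 0.0202) and 1.99-fold lower at D3 than at D1 (-0.99, adjusted p = 0.0070). Hatchlings averaged 8.65 and embryos 9.55 (-0.89, adjusted p = 9.0e-06). The D1 call was lost without E20 replicate 1 (ratio -0.74, adjusted p = 0.0626) and without D1 replicate 1 (-0.66, adjusted p = 0.0883).

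The second CETP probe set was called in the same contrasts, at ratios of 1.24 for E18 over E16, -1.05 for D1 over E20, -1.01 for D3 over D1 and -1.17 for hatchlings over embryos. The third averaged 4.27 over the 24 arrays, near background, and was called nowhere (F test adjusted p = 0.543). When all 3 were averaged, the ratio of hatchlings over embryos was -0.71, of D1 over E20 -0.61 and of D3 over D1 -0.71, under the limit of 0.75 although each adjusted p stayed under 0.05.

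PLTP transfers phospholipid into HDL as triglyceride-rich particles shrink. Its brighter probe set gave 5.88, 6.27, 6.56 and 5.66 at E16, 6.24, 6.19, 6.08 and 5.84 at E18, and 5.77, 5.89, 5.85 and 5.71 at E20. It gave 5.55, 5.48, 5.67 and 5.40 at D1, 5.88, 5.72, 5.77 and 5.55 at D3, and 5.78, 5.51, 5.73 and 5.69 at D9. All of these lie within a narrow span, with the lowest mean at D1 and the E16 livers the most scattered. The D1 livers overlapped those of D3 and D9, and on the other PLTP probe set the lowest mean was at D3 (4.93).

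PLTP averaged 5.64 in hatchlings and 5.99 in embryos. This difference had an adjusted p of 0.0013 but a log2 ratio of -0.35 (interval -0.52 to -0.19), under the limit, so it was not called. The other PLTP probe set gave -0.54 for the same contrast (adjusted p = 2.0e-05) and -0.71 for D3 over E18 (adjusted p = 6.7e-04), also under the limit.

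**Figure D3:**
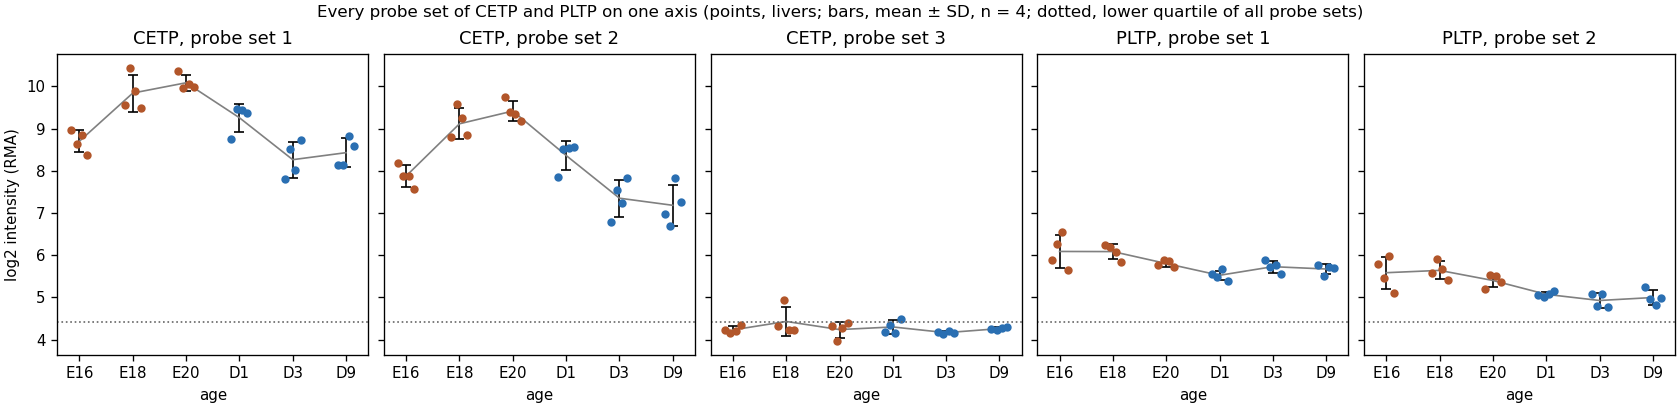
Log2 intensity by age of the 3 probe sets of CETP and the 2 of PLTP. Points are livers, bars are mean ± SD over 4 livers, and the dotted line marks the lower quartile of mean level over all probe sets (4.43). The first 2 CETP probe sets run alike with a peak at E20 (10.09 and 9.42), while the third stays near the dotted line.

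LRP1 is a large endocytic receptor that clears remnant lipoproteins and many protease complexes, and it is made by hepatocytes, macrophages and fibroblasts. Its levels were 6.12, 6.68, 6.91 and 7.66 at E16, 7.21, 7.004, 7.15 and 7.63 at E18, and 6.34, 6.34, 6.48 and 7.16 at E20. They were 5.41, 5.74, 5.82 and 6.42 at D1, 5.32, 5.35, 5.99 and 5.74 at D3, and 5.40, 5.79, 5.48 and 5.49 at D9. All E18 livers lay above all hatchling livers, whereas the lowest E16 and E20 livers lay below the highest D1 liver.

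LRP1 averaged 5.66 in hatchlings and 6.89 in embryos, 2.35-fold lower in hatchlings (log2 ratio -1.23, SE 0.15, adjusted p = 7.8e-07). No single step between neighbouring ages was called. The 2 largest were E20 over E18 (-0.67, interval -1.20 to -0.13, adjusted p = 0.140) and D1 over E20 (-0.74, interval -1.27 to -0.20, adjusted p = 0.0829). D3 was 3.14-fold below E18 (-1.65, adjusted p = 3.6e-05).

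LRP1 also varied with the replicate number, taken as the hybridization day. Its mean deviation from the age means was -0.31, -0.13, 0.03 and 0.41 on days 1 to 4, and the day 4 liver was the highest at 4 of 6 ages. Within days, D1 was below E20 on 4 of 4 days, by ratios between -0.93 and -0.60. With the day as a replicate block the D1 over E20 ratio remained -0.74 with an adjusted p of 0.0109, just under the limit on the ratio. It was called with array weights (-0.80, adjusted p = 0.0364) and without D1 replicate 4 (-0.93, adjusted p = 0.0319).

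**Figure D4:**
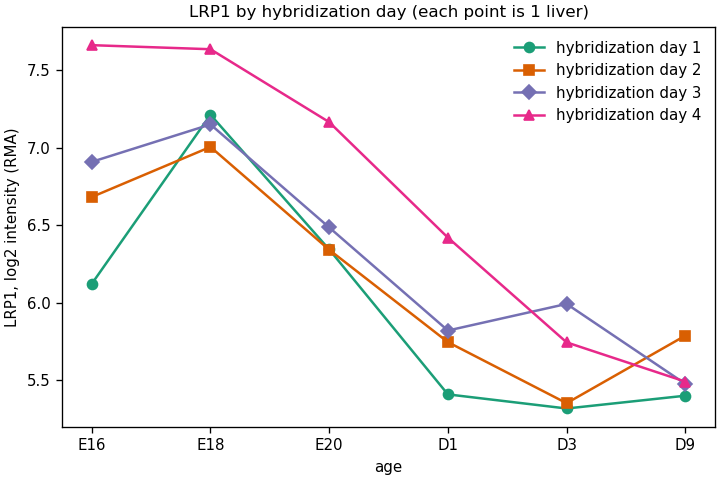
LRP1 log2 intensity by age, with 1 line for each replicate number, taken as the hybridization day, and each point a single liver. The day 4 line is highest at E16, E18, E20 and D1 (7.66, 7.63, 7.16 and 6.42), and all 4 lines are lower at D3 and D9 than at E18.

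The list of 12 stellate and fibroblast markers was also lower in hatchlings, with 4 called lower and 0 higher, and a median ratio of -0.41. The list mean was 8.63 to 8.86 at D1, 8.42 to 8.64 at D3 and 8.47 to 8.78 at D9, against 9.20 to 9.34 at E16, 9.14 to 9.35 at E18 and 8.92 to 9.10 at E20, with ACTA2 near background. Its part in the LRP1 difference was not tested. Of 11 macrophage markers 1 was higher and 0 were lower in hatchlings.

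VLDLR takes up triglyceride-rich lipoproteins and, in the laying hen, is the oocyte receptor for yolk precursors. In liver its levels were 5.97, 5.30, 5.30 and 5.68 at E16, 5.55, 6.09, 5.57 and 5.32 at E18, and 5.25, 5.32, 5.17 and 5.47 at E20. They were 4.82, 5.14, 4.84 and 5.33 at D1, 5.24, 5.67, 5.66 and 4.91 at D3, and 5.31, 5.31, 5.10 and 5.89 at D9. The ages overlapped broadly, with the lowest mean at D1 (5.03 ± 0.25).

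VLDLR was called in none of the contrasts (F test adjusted p = 0.173). Hatchlings averaged 5.27 and embryos 5.50, a ratio of -0.23 with an interval of -0.47 to 0.01 (adjusted p = 0.134). An absolute ratio of 0.75 or more thus lies outside the interval of this contrast, though smaller differences do not. VLDLR, LPL and LIPG are Z-linked in the GRCg7b gene table. On E18 replicate 2, the array with high HINTW, the median of 545 Z-linked genes deviated from the age mean by -0.19. On that array LPL deviated by -0.32, LIPG by -0.28 and VLDLR by 0.46. Among arrays with low HINTW, LPL deviated by -0.46 on E18 replicate 1. LIPG deviated by -0.49 on D3 replicate 3, at an age when its level was further above background. The Z-linked medians of these 2 arrays with low HINTW were 0.02 and -0.002. The E18 mean from which deviations were taken includes E18 replicate 2 itself. An effect of sex on these 3 genes was not tested.

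Step by step, the 8 genes were called as follows. Between E20 and E18, 1 was higher (LPL), where 2.4% of all named genes were called higher and 1.83% lower. Between D1 and E20, 0 were higher and 2 lower (LIPC and CETP), where 3.44% and 2.28% of named genes were called higher and lower. Between D3 and D1, between which feeding began, 1 was higher (LIPG) and 4 lower (LPL, LIPC, LCAT and CETP), where 2.63% of named genes were higher and 1.88% lower. The median ratio of the 8 genes in that step was -0.62, against -0.01 over all genes. Markers of blood cells also differed in that step. Of 5 measured granulocyte markers 3 were lower and 0 higher at D3 than at D1 (median ratio -1.87), with a list mean of 6.20 to 8.24 at D3 and 8.16 to 9.72 at D1 and none near background. These markers were also lower in hatchlings than in embryos (4 of 5, median -1.86) and at D9 than at D1 (4 of 5, median -2.21). Of 12 listed erythroid markers 4 were measured, and 2 were higher and 0 lower at D3 than at D1 (median 0.70). Their list mean was 9.41 to 10.14 at D3 and 8.71 to 9.41 at D1. These markers differed more between E20 and E18, the step in which LPL was called, with 2 lower and 0 higher (median -1.11). Their list mean was 8.92 to 9.12 at E20 and 9.94 to 10.48 at E18. The part of blood cells in the differences of the 8 genes was not tested. Between D9 and D3, 1 of the 8 genes was lower (LPL), where 0.969% of named genes were higher and 1.84% lower.

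A pair of wider contrasts reused the same livers. Between D3 and E18, 1 was higher and 5 were lower, where 11% of named genes were higher and 6.03% lower. Between D9 and D1, 1 was higher and 4 were lower, where 3.9% of named genes were higher and 3.6% lower. In that last contrast the CETP call (ratio -0.83, adjusted p = 0.0174) was lost when D1 replicate 2, D1 replicate 3, D9 replicate 1 or D9 replicate 2 was left out (adjusted p of 0.0558 to 0.0675). Without both E18 replicate 2 and D9 replicate 1 its ratio was -0.73, under the limit.

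Correlations over the 24 livers describe how alike the patterns were, with the 6 ages shared by all genes. LIPC and LCAT had r = 0.94, LPL and LIPC 0.89, and LIPG and LCAT -0.96. After each age mean was subtracted, r was 0.69 for LPL and LIPC, 0.04 for LIPC and LCAT and -0.47 for LIPG and LCAT. With the means of the hybridization days subtracted as well, the values were 0.70, 0.19 and -0.26 for the same pairs. The likeness of LIPC and LCAT thus lay mostly in their age means.

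The 3 genes most like each member were sought among 6160 genes that passed the F test and were above the 25th percentile. LIPG was most like malic enzyme (ME1, r = 0.98), which supplies NADPH for fatty acid synthesis, and like ANXA13 and IFT80 (both 0.98). ME1 averaged 9.24 at D1, 13.43 at D3 and 13.96 at D9. LIPC was most like the amino acid transporter SLC7A2, the carnitine transporter SLC22A5 and CROT, a peroxisomal carnitine acyltransferase (all 0.97). CROT averaged 12.23 at E20, 11.71 at D1 and 10.54 at D3.

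LPL was most like AP1AR (0.94), PPARGC1A (0.92) and C8A (0.92), but within ages these r were 0.46, 0.21 and 0.07. PPARGC1A, a coactivator of oxidative metabolism, had age means of 9.88 (E20), 9.37 (D1), 6.98 (D3) and 6.57 (D9). LCAT was most like PCYOX1 (0.96), SLCO2B1 (0.95) and IGFBP2 (0.94), CETP like LOC100858941 (0.88), BAMBI (0.87) and IGFBP2 (0.86), and PLTP like EFNB1 (0.85), TP53RK (0.82) and RNF113B (0.80). LRP1 was most like LIMS2 (0.94), PXDN (0.93) and DCBLD2 (0.93). Over all these pairs of a member and a like gene, r within ages ran from 0.07 (LPL with C8A) to 0.80 (LRP1 with LIMS2). For LRP1 with LIMS2 it was 0.51 within ages and hybridization days.

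Other genes of lipoprotein handling were taken from 5 lists, of which 57 of 74 genes were measured. Between hatchlings and embryos 7 of the 57 were higher, 1 was lower and 49 were not called. Over all named genes 5.42% were higher and 4.11% lower. Between D3 and D1, 5 were higher (ANGPTL4, LIPA, PNPLA3, G0S2 and APOA4) and 1 was lower (SDC1), and between D9 and D3, 3 were higher (PNPLA3, AADAC and SORL1) and 0 lower. Between D1 and E20, 3 were higher (LIPI, SAA and SAR1B) and 2 lower (CD36 and APOA4). Between E20 and E18, 4 were higher (APOA5, PNPLA2, APOA4 and SAA) and 4 lower (G0S2, LIPI, SCARB2 and PON1), and between E18 and E16 none was called. The shares of all named genes called higher and lower were 2.63% and 1.88% between D3 and D1. They were 0.969% and 1.84% between D9 and D3, and 3.44% and 2.28% between D1 and E20. They were 2.4% and 1.83% between E20 and E18, and 0.215% and 1.37% between E18 and E16. Some of the list counts are near these shares.

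Of 14 lipase regulators, ANGPTL4, a secreted inhibitor of LPL, was the only one called between hatchlings and embryos. Its levels were 7.72, 7.13, 8.59 and 7.92 at D3, against 6.13, 5.99, 6.08 and 5.88 at D1. All D3 livers were thus above all D1 livers (ratio 1.82, adjusted p = 8.2e-04). At D9 ANGPTL4 averaged 8.46 ± 0.98 with a single low liver at 7.03. A link between the levels of ANGPTL4 and LPL was not tested. SDC1, a heparan sulfate proteoglycan that binds lipases and remnants, was lower at D3 than at D1 (-0.86, adjusted p = 6.5e-04, called on 1 of 2 probe sets). APOA5, an activator of LPL, was higher at E20 than at E18 (1.93, adjusted p = 8.8e-04). GPIHBP1, known in mammals as the capillary anchor of LPL, lay between 4.91 and 5.22 in all age means and was not called.

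Among 11 intracellular and other lipases, PNPLA3, a lipid droplet acylhydrolase, averaged 8.16 ± 0.19 at D1, 11.52 ± 0.47 at D3 and 13.30 ± 0.26 at D9. It rose by 3.36 between D1 and D3 (adjusted p = 1.7e-11) and by 1.77 between D3 and D9 (adjusted p = 4.7e-06). LIPA, the lysosomal acid lipase, was higher at D3 than at D1 (1.00, adjusted p = 9.0e-04, 4 of 5 probe sets), as was G0S2, an inhibitor of adipose triglyceride lipase (2.60, adjusted p = 4.5e-04). G0S2 was lowest at D1, with means of 11.42 at E18, 8.83 at D1 and 11.43 at D3. AADAC, an esterase of the endoplasmic reticulum, was lower at D3 than at E18 (-1.37, adjusted p = 1.4e-09) and higher at D9 than at D3 (0.75, adjusted p = 8.2e-05). Its D9 mean of 12.14 stayed below its embryonic means of 12.37 to 12.76. Outside the naming rule and picked after their values were seen, LIPI was lower at E20 than at E18 (-2.28) and higher at D1 than at E20 (1.62), and PNPLA2 was higher at E20 than at E18 (0.89, on 1 of 3 probe sets).

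Of 14 other receptors and chaperones, SCARB2, a lysosomal membrane protein, was lower in hatchlings than in embryos (-1.68, adjusted p = 6.4e-12), with a ratio of -1.78 between E20 and E18. The fatty acid transporter CD36 was lower at D1 than at E20 (-0.85, adjusted p = 2.4e-05, both probe sets), and the sorting receptor SORL1 was higher at D9 than at D3 (1.00, adjusted p = 0.0046). LRPAP1, the chaperone of LRP1 and VLDLR, had age means between 10.75 and 11.10 and was not called.

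Of 9 genes of HDL formation, APOA4 averaged 13.57 ± 0.16 at D3 and 12.18 ± 0.60 at D1 (1.38, adjusted p = 0.0015). SAA, an acute-phase apolipoprotein of HDL, was higher at E20 than at E18 (2.64) and at D1 than at E20 (1.99). PON1, an HDL esterase, was lower at E20 than at E18 (-0.99, adjusted p = 5.6e-04). Of 10 genes of VLDL and yolk particles, MTTP and SAR1B, which load and export apolipoprotein B particles, were higher in hatchlings than in embryos (0.92 and 1.29). APOB itself had age means between 13.33 and 13.63 and was not called.

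**Figure D5:**
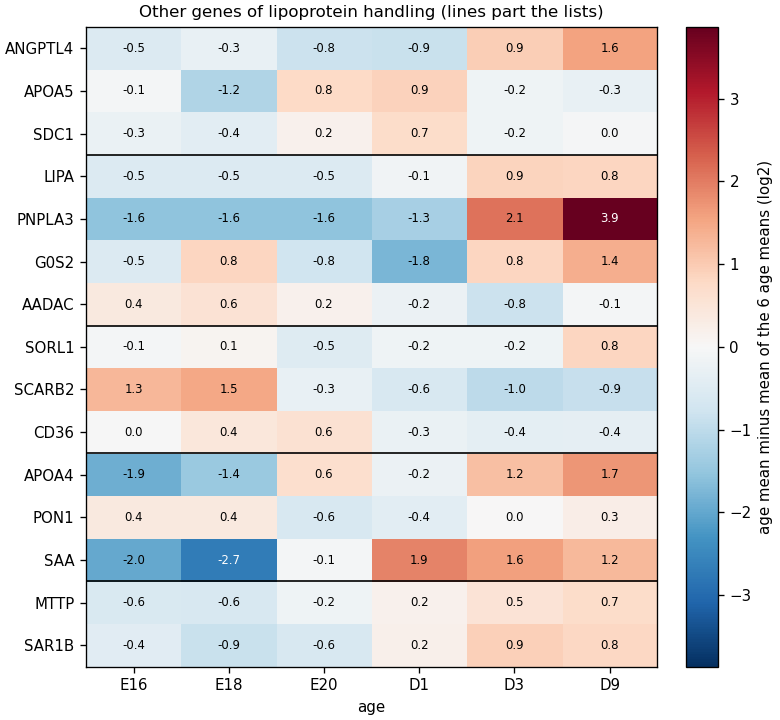
Age means of the 15 named list genes minus each gene's mean over the 6 ages (log2), in time order, with lines between the lists. Red is above and blue below the gene's own mean. ANGPTL4, LIPA and PNPLA3 are red at D3 and D9, and SCARB2 is red at E16 and E18.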

How the data were processed

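Liver RNA of 24 chickens was hybridized to 24 Affymetrix Chicken Genome Arrays. The authors deposited log2 intensities after RMA (background-corrected, quantile-normalized and summarized per probe set). The submitters' processing notes name RMA and limma 3.30.13. By the study's methods RMA was run in affylmGUI, and limma served the tests of differential expression. Of 38535 probe sets, 96 controls were left out. The platform annotation gave 27168 of the tested probe sets 1 symbol, 177 several and 11094 none, and a gene is shown by its brightest probe set. Precision is limited by the number of arrays.

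A model with 1 mean per age over all 24 arrays was fitted in limma 3.58.1 (R 4.3.3), with two-sided tests and Benjamini-Hochberg adjustment over 38439 probe sets. No probe set was filtered out, and the fit was tested on simulated data. The design and limits follow the study's methods. The members, lists and tests were chosen with earlier results of these data known. Named are all members, up to 4 genes a list that were called in a step or in hatchlings vs embryos, the 3 genes most like each member that passed the F test, and ALB, HINTW and NPPA as checks. Sequences were not used here.

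Replicate numbers were taken to pair the arrays, since the study ran 1 replicate of each age on each hybridization day. The sample titles give the number but not the day. After the age means were subtracted, the 60 array pairs that shared a day correlated at 0.071 on average, and the 180 pairs that shared neither day nor age at -0.0234. Alternatives were the replicate block, cyclic loess, array weights, trend and robust eBayes, a filter on dim probe sets, fits of only the arrays compared, other choices of probe set, no limit on the ratio and arrays left out. Figures were drawn with Python 3.11.15 and matplotlib 3.10.9.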

Additional observations from a re-analysis of the deposited data

Results flagged for a closer look

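In 3 of 66 groups of 4 livers, each 1 probe set at 1 age, a single liver stood far from the other livers by Dixon's test at the 95% level, and chance flags about 1 in 20 such groups. All 3 belong to CETP. On its brightest probe set D1 replicate 1 was lowest at 8.76, with the other D1 livers between 9.37 and 9.46. On its second probe set the same liver was lowest at 7.84, with the others between 8.52 and 8.56, and these probe sets share the gene and the liver. On its near-background probe set E18 replicate 2, the array with high HINTW, was highest at 4.94, with the others between 4.23 and 4.32.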

How the results depend on the processing

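For the 8 genes, the 29 ratios that were called, or whose call changed under an alternative, were followed through 634 alternatives in all. Of these, 618 kept their direction and their side of the limits, 13 were no longer called, 3 became called and 0 were reversed. With the replicate block for the hybridization day the counts of called genes were 6 between hatchlings and embryos, 5 between D3 and D1 and 2 between D1 and E20, as without it, and no call changed. With E18 replicate 2 and D9 replicate 1 both left out, LPL was lost and the count between E20 and E18 was 0, and leaving out single livers gave 0 to 1, the 0 without E18 replicate 1. Averaging a gene's probe sets took the count between D1 and E20 to 1 (CETP lost, its mean then including the near-background probe set). With that averaging CETP was also no longer called between hatchlings and embryos, between D3 and D1 and between D9 and D1. Between D1 and E20, leaving out single livers gave 1 to 3 called genes. The 1 came without E20 replicate 1 or D1 replicate 1, and the 3 without D1 replicate 4 (LRP1 added). Without the limit on the ratio, PLTP was also called between hatchlings and embryos. The LIPG means up to D1 (4.55 to 4.78) lay just above the limit of 4.43 for signals near background, which limits how well its ratios are measured.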
